A study of Mus musculus with 8 samples.

Results

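Integrins, laminins and the proteins that link them make up the adhesion layer between the cells of the heart and their basement membranes, and 39 of their genes were followed here in the left ventricle of the mouse. The genes were taken by symbol: 16 integrin alpha chains, 8 integrin beta chains, 10 laminin chains and 5 linkers (Nid1, Nid2, Hspg2, Agrn and Dag1). A gene counted as measured where its normalized value reached at least 1 in 2 or more of the 8 libraries, which 38 of the 39 did, among 16432 genes of the whole table. Lama1, the embryonic laminin alpha chain, was the exception, with 0.961 in TAC SFA replicate 1, 0.890 in sham SFA replicate 1 and 0 in the other libraries. Itga2, a collagen receptor chain, lay just inside, with a highest value of 1.91.

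Integrins are receptors made of 1 alpha and 1 beta chain that span the cell membrane and tie the matrix outside to actin inside. Laminins are trimers of an alpha, a beta and a gamma chain that polymerise into the sheet of the basement membrane, and nidogens, perlecan and agrin join that sheet to collagen networks and to dystroglycan on the cell surface. In heart muscle this layer carries force sideways out of the contracting cell, and inherited loss of some of its parts causes muscular dystrophy and cardiomyopathy.

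Male mice of the C57BL/6N strain, given as 8 weeks old, underwent transverse aortic constriction (TAC), in which a tightened aortic arch puts a pressure load on the left ventricle, or a sham operation. They were fed a diet in which free essential amino acids took the place of 93.5% of the casein (SFA-EAA), or the low fat diet it was set against (SFA), and polyadenylated RNA was taken from the left ventricle 4 weeks after the operation. The groups were TAC with SFA-EAA, TAC with SFA, sham with SFA-EAA and sham with SFA, with 2 libraries each, and all animals had an operation and a defined diet. The labels do not state that the pair of libraries in a group stems from different animals, and all p-values therefore reflect only the scatter among these 8 libraries, which may be technical.

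The sum of a library's normalized values lay between 5136441 and 6298743, and 14202 to 15844 genes reached a value of 1 in it. The members together held between 0.171% (sham SFA-EAA replicate 1) and 0.355% (TAC SFA replicate 2) of a library's sum. Nppb, a ventricular stress peptide, lay between 2771 and 4697 in the 4 TAC libraries and between 942 and 1122 in the 4 sham libraries, which fits the labels. Summed markers of cardiomyocytes, the cells expected in this tissue, reached 283873 to 382819 in all libraries. The atrial light chain Myl7 was high in TAC SFA replicate 2 (322) and in sham SFA replicate 1 (621), while its remaining 6 values ran from 1.28 to 43.0. Of 6 atrial markers, 5 were tested, and 0 had a positive log2 fold change between SFA-EAA and SFA, in TAC or in sham hearts. Their median was -3.53 in TAC and -3.27 in sham hearts, and 0 were called in either. The part of atrial tissue in the diet comparisons was not tested. In 3 libraries (TAC SFA-EAA replicate 2 and both sham SFA-EAA libraries) a gene's deviation from its mean fell with its GC content, with a Spearman rho between -0.70 and -0.40 across 11387 genes. In the other 5, TAC SFA-EAA replicate 1 and all SFA libraries, it rose with GC content, with a rho between 0.32 and 0.48. The trend thus largely went with the diet. A diet effect and this trend can therefore not be fully told apart, with the deposited or with corrected values. Values corrected for this trend are therefore given beside the deposited ones where they change the call of a member. With corrected values the atrial medians between the diets were -3.43 in TAC and -3.16 in sham hearts. Nppa was then called lower in TAC SFA-EAA than in TAC SFA, as were 0.755% of all genes.

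Per kilobase of gene length, the scale on which genes can be compared with each other, the most abundant member was Itgb1, the beta chain shared by most matrix-binding integrins, at a mean of 560 over the 8 libraries. Dag1, which encodes the laminin receptor dystroglycan, followed at 306, then the laminin chain Lamb2 at 206 and Itga7, the laminin-binding alpha chain of striated muscle, at 205. Itgb5, a partner of the alpha V chain in vitronectin receptors, stood at 189, and Hspg2, which encodes the heparan sulfate proteoglycan perlecan, at 108. The most abundant laminin gamma chain was Lamc1, at 93.7, and Lama5, Lama2 and Lama4 had similar means per kilobase of 35.0, 33.3 and 30.7. The fibronectin receptor chain Itga5 and the tenascin and osteopontin receptor chain Itga9 stood at 76.0 and 51.2. The other members ran down from Nid1, a nidogen, at 105, and 8 of them, from the hemidesmosome chain Itgb4 at 0.980 downwards and Lama1 among them, lay below 1. Gene length here is that of the reference gene model, so a gene transcribed from a short isoform is understated.

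**Figure D1:**
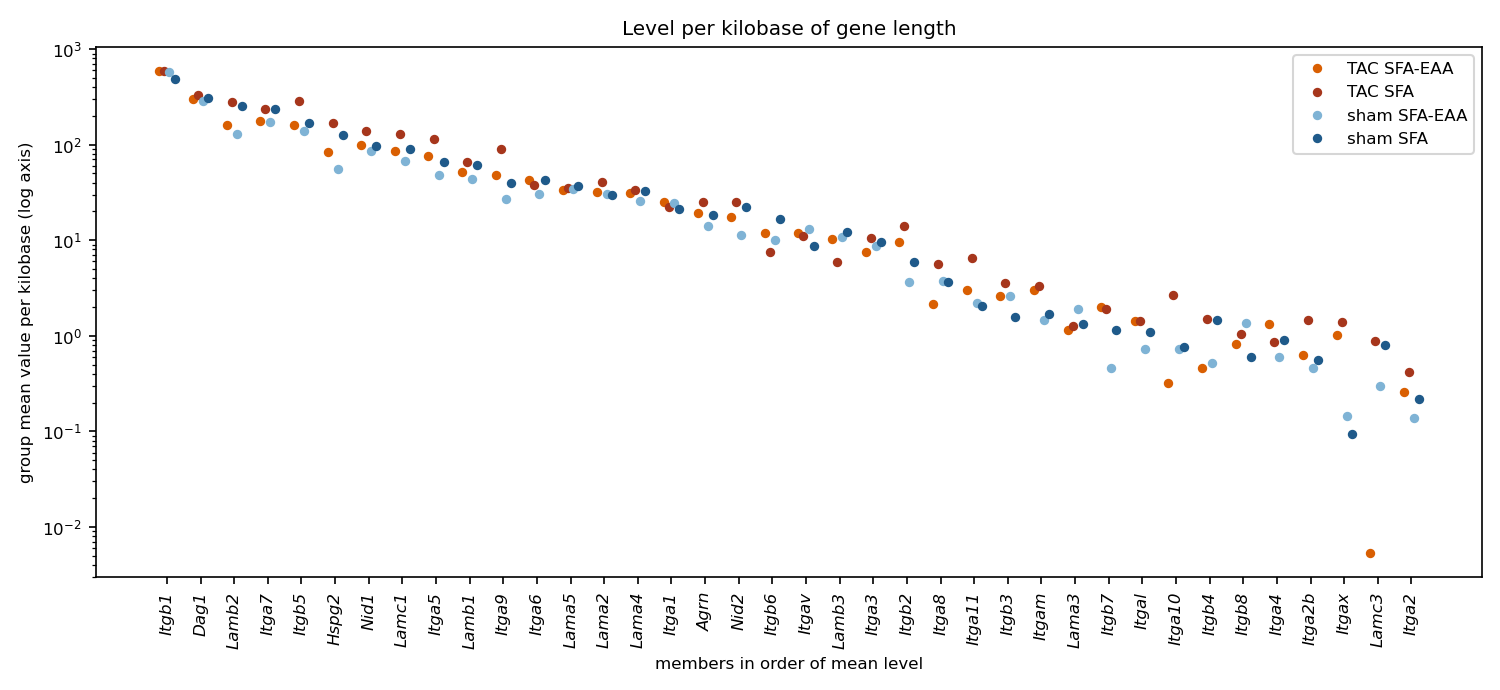
Group mean of the normalized value per kilobase of gene length (vertical, log axis) for the 38 measured members in order of their mean (horizontal), with 1 point per group of 2 libraries. Itgb1 heads the order at a mean of 560 and Itga2 ends it at 0.259; the lowest point is Lamc3 in TAC SFA-EAA, whose 2 libraries were at 0.00825 and 0.0567 before division by length.

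With the deposited values, 4 integrin chains were higher in TAC hearts and no laminin chain or linker was called. The laminin chain Lamc1 lay just outside (limma adjusted p = 0.0581) and was called higher after correction for GC content, as was Agrn, while Lamb3 was then called lower. Lamb3 shares its locus with other genes, as given below. With the TAC effect averaged over the diets, Itga9 was 2.02-fold higher in TAC hearts, Itga5 1.63-fold, the leukocyte beta chain Itgb2 2.43-fold and its alpha partner Itgax 4.35-fold. These were the 4 members of 38 that passed limma's adjusted threshold of 0.05, all of them higher, where 1.38% of the 16432 genes were called higher, 0.73% lower and 2.11% in either direction. Itgax passed the filter on low values through the TAC libraries and lost its call under other filters, so the count holds 3 members without it. The count was 0 in the absence of TAC SFA replicate 2, of sham SFA replicate 1 or of sham SFA replicate 2, it was 2 with TAC SFA replicate 1 or either sham SFA-EAA library left out, and 8 with TAC SFA-EAA replicate 2 left out. The share of all genes called with each of these libraries left out is not given here, so these counts show only how stable the calls were. For 7 members (Itga5, Itga9, Itga11, Itgam, Itgax, Itgb2 and Itgb7) all 4 TAC libraries lay above all 4 sham libraries, as they did for 3.73% of all genes. Itgax among them carries the same limit of a filter passed through TAC. The TAC libraries lay below for no member and for 2.75% of all genes. The members' median log2 fold change was 0.31, beside 0.01 over all genes tested, and 29 of 38 were positive.

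Itga5 (ENSMUSG00000000555, chromosome 15, 103344286 to 103366763, minus strand, GRCm38) pairs with Itgb1 to form the main fibronectin receptor. It had 339.7 and 332 in TAC SFA-EAA, 456 and 555 in TAC SFA, 220.4 and 211 in sham SFA-EAA, and 301 and 283 in sham SFA (replicates 1 and 2 in that order, as in all such lists). Every TAC library lay above every sham library, and within each operation the SFA libraries lay above the SFA-EAA libraries. The mean was 421 ± 106 in TAC and 254 ± 44.8 in sham (SD, n = 4 libraries each), with a log2 fold change of 0.71 (SE 0.09, limma adjusted p = 0.00809). The call rested on 4 libraries: the limma adjusted p was 0.0609 with TAC SFA replicate 2 left out, 0.0511 with sham SFA-EAA replicate 2, 0.0574 with sham SFA replicate 1 and 0.0798 with sham SFA replicate 2. The log2 fold change stayed between 0.64 and 0.78 whichever library was left out.

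Itga9 (ENSMUSG00000039115, chromosome 9, 118606690 to 118901003, plus strand) pairs with Itgb1 to bind tenascin C, osteopontin and VCAM-1. Its values were 330.5 and 414 in TAC SFA-EAA, 638 and 746 in TAC SFA, 243 and 174 in sham SFA-EAA, and 310.4 and 293 in sham SFA. The groups of operation did not overlap, though the lowest TAC library stood only slightly above the highest sham library, and both TAC SFA libraries lay far above the rest. TAC averaged 532 ± 193 and sham 255 ± 61.3 (SD, n = 4 each), a log2 fold change of 1.02 (SE 0.13, limma adjusted p = 0.00713). The call was lost with TAC SFA replicate 2 left out (limma adjusted p = 0.0691), with sham SFA replicate 1 (0.0538) and with sham SFA replicate 2 (0.0729), with log2 fold changes between 0.90 and 1.14. With no filter on low values, which brought 20568 genes into the test, the adjusted p was 0.0672.

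Itgb2 and Itgax belong to a family of white blood cell integrins. Itgb2 (ENSMUSG00000000290, chromosome 10, 77530252 to 77565708) is the beta chain of that family, which Itgal, Itgam and Itgax share. It had 32.8 and 25.4 in TAC SFA-EAA, 42.8 and 42.5 in TAC SFA, 7.83 and 14.3 in sham SFA-EAA, and 19.8 and 16.4 in sham SFA. No sham library reached a TAC library. The mean was 35.9 ± 8.39 in TAC and 14.6 ± 5.03 in sham (SD, n = 4 each), a log2 fold change of 1.28 (SE 0.25, limma adjusted p = 0.0364). Itgax (ENSMUSG00000030789, chromosome 7, 128129547 to 128150657), the alpha X chain of some macrophages and dendritic cells, was far lower in level. It had 5.11 and 4.70 in TAC SFA-EAA, 9.57 and 3.68 in TAC SFA, 0.117 and 1.28 in sham SFA-EAA, and 0.890 and 0 in sham SFA. All TAC values exceeded all sham values, which lay near or below 1, so the log2 fold change of 2.12 (SE 0.44, limma adjusted p = 0.0463) rests on very low values and moved to 3.16 with a pseudocount of 0.25 (adjusted p = 0.0778). It reached 1 in 4 TAC libraries and 1 sham library, so it passed the filter through the group where it is high. Its limma adjusted p was 0.0969 with no filter and 0.0666 with a filter of 5 in 2 libraries, and that of Itgb2 0.0760 with no filter. Leaving out any 1 of 5 libraries for Itgb2 (both TAC SFA, sham SFA-EAA replicate 1 and both sham SFA) and any 1 of 6 for Itgax (those 5 and sham SFA-EAA replicate 2) put the adjusted p above 0.05, at up to 0.199 and 0.224.

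The other leukocyte chains did not pass. Itgam, the alpha M chain of the complement receptor of macrophages and neutrophils, ranged from 12.1 to 21.0 in the TAC libraries and from 4.98 to 9.64 in the sham libraries (log2 fold change 0.93, limma adjusted p = 0.203). Itgb7, a beta chain of lymphocytes, ranged from 4.76 to 6.14 in TAC and from 0.0872 to 3.70 in sham (1.17, adjusted p = 0.220). Both thus had no overlap between operations without reaching the threshold. Itgal, the alpha L chain that binds ICAMs, ranged from 8.42 to 10.4 in TAC and from 4.74 to 9.26 in sham, and Itga4, the VCAM-1 receptor chain of lymphocytes and monocytes, from 11.4 to 20.02 in TAC and from 6.20 to 14.8 in sham, so both overlapped.

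All 8 macrophage markers had a positive averaged log2 fold change (median 0.69), and 2 of them, Fcgr1 and C1qb, passed, where 2.11% of all genes did (6 passed with GC-corrected values, where 6.27% did). Their sum was 1140 and 1092 in TAC SFA-EAA, 1540 and 1374 in TAC SFA, 637 and 726 in sham SFA-EAA, and 1126 and 885 in sham SFA. Sham SFA replicate 1 lay above TAC SFA-EAA replicate 2, so the sums overlapped, and none of the 8 markers was at 0 throughout. Of 6 neutrophil markers, 5 were tested and 0 passed, with sums of 2.43 to 42.7 in TAC and 4.83 to 12.2 in sham, and Ly6g was at 0 in every library. Of 8 lymphocyte markers, 7 were tested and 0 passed, with sums of 7.47 to 17.4 in TAC and 6.21 to 16.5 in sham. Their part in the rise of Itgb2 and Itgax was not tested, and in RNA of whole tissue more cells of a type and more RNA per cell cannot be told apart.

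**Figure D2:**
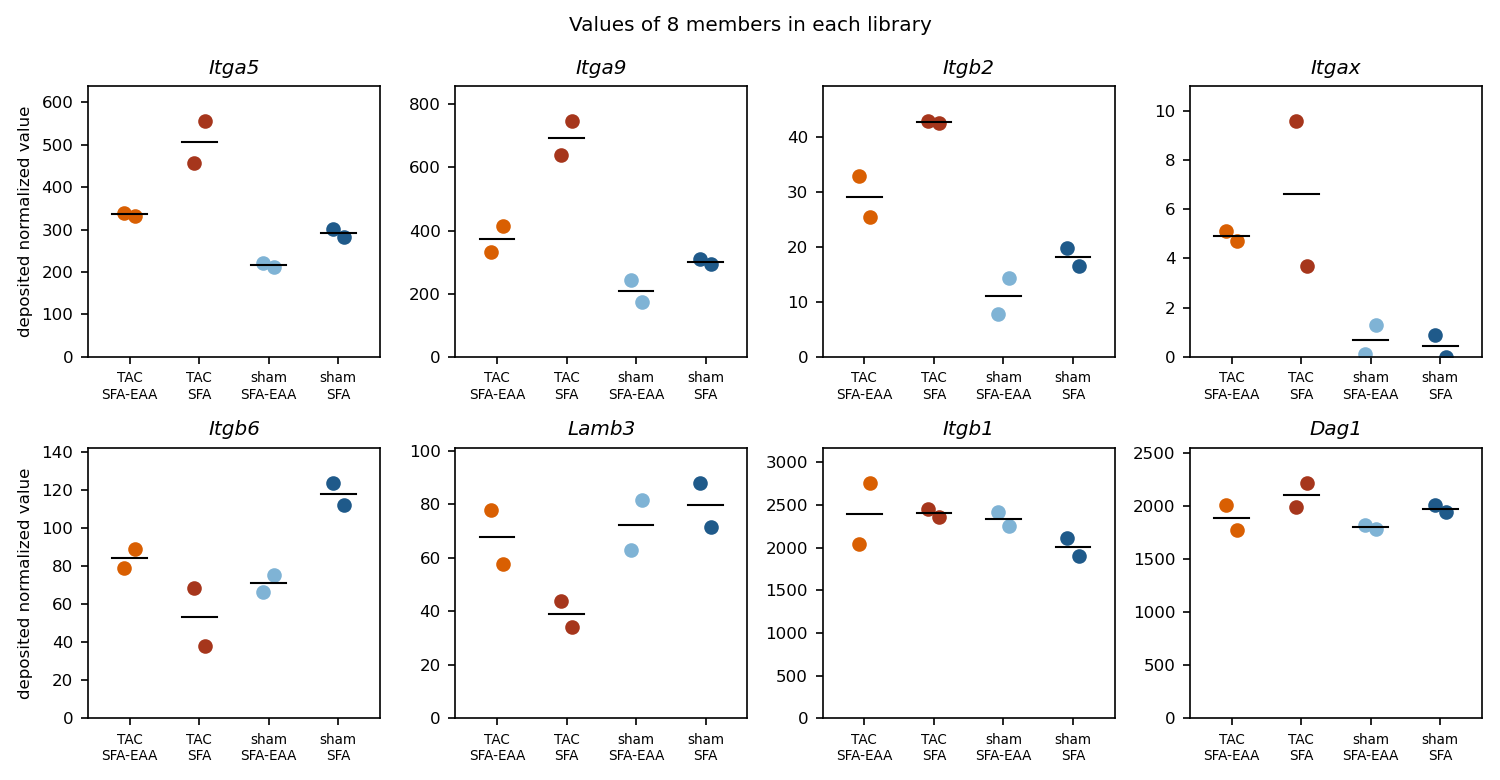
Normalized value (vertical, from 0) of 8 members in each library, by group (horizontal, 2 points per group, bar at the mean). Itga5, Itga9, Itgb2 and Itgax lie higher in all 4 TAC libraries than in all 4 sham libraries, Itgb6 and Lamb3 are lowest in TAC SFA, and the abundant Itgb1 and Dag1 overlap between operations.

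The DNA before the start of a gene holds its core promoter. The NCBI RefSeq table of promoters for GRCm38.p6 had entries for 27 of the members, 3 of the 4 called ones among them. That of Itga9 lies inside the gene's deposited interval and not at its outer start, and is not shown. The upstream bases of Itga5 and Itgax, a matrix receptor chain of many cells and a chain of leukocytes, are shown because both were called in the averaged comparison. The call of Itgax rests on very low values and on a filter passed through TAC, as given above. Capitals mark every match, on either strand, to 3 motifs that were searched: the GC box GGGCGG, the AP-1 site TGANTCA and the ETS site GGAAGT.
Itga5, chr15:103366792-103367041, minus strand, 250 bases: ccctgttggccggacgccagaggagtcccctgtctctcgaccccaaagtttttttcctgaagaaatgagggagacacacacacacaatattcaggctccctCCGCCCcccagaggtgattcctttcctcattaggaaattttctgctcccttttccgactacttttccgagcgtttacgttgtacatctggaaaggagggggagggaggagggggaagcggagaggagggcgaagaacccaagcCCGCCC
Itgax, chr7:128129300-128129546, plus strand, 247 bases: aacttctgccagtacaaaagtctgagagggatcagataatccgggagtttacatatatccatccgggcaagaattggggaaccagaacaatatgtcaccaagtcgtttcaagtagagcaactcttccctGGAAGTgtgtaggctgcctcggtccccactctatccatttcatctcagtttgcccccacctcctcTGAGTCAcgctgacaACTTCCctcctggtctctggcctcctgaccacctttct
The Itga5 sequence held 2 GC boxes, both as CCGCCC, with 11 CG dinucleotides and 55.6% GC. The Itgax sequence held 1 AP-1 site and 2 ETS sites, 1 on each strand, with 5 CG dinucleotides and 50.2% GC, and no motif overlapped another. Among 32851 promoters of 250 upstream bases, 32.7% held a GC box, 6.7% an AP-1 site and 19.7% an ETS site, with a median of 6 CG dinucleotides and 52.4% GC. These matches describe the sequences only.

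The abundant receptor genes Itgb1, Dag1, Itga7 and Itgb5 did not pass the test with the deposited values. Itgb1 had 2039 and 2759 in TAC SFA-EAA, 2455 and 2353 in TAC SFA, 2412 and 2252 in sham SFA-EAA, and 2114 and 1900 in sham SFA, with overlap between the operations (averaged log2 fold change 0.14, 95% interval -0.09 to 0.38). Dag1 lay at 2014 and 1773 in TAC SFA-EAA, 1997 and 2223 in TAC SFA, 1829 and 1787 in sham SFA-EAA, and 2011 and 1945 in sham SFA (0.08, interval -0.10 to 0.26). The interval of Dag1 was the narrowest among the 38 members, and both intervals span 0. Itga7 had 904 and 514 in TAC SFA-EAA, 871 and 1036 in TAC SFA, 631 and 739.6 in sham SFA-EAA, and 911 and 979.7 in sham SFA (0.00, interval -0.37 to 0.37). TAC SFA-EAA replicate 2 was its lowest library. Itgb5 had 706 and 378 in TAC SFA-EAA, 767 and 1153 in TAC SFA, 448 and 497 in sham SFA-EAA, and 552 and 582 in sham SFA (0.43, interval -0.01 to 0.87). TAC SFA-EAA replicate 2 was its lowest library too, and TAC SFA replicate 2 its highest, so its TAC libraries enclosed the whole sham range. Itgb5 was called higher in TAC under SFA after correction for GC content, as given below.

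Among the laminin receptors, Itga6, an alpha chain of endothelial and epithelial cells, had 370.5 and 404 in TAC SFA-EAA, 383 and 304 in TAC SFA, 262 and 286 in sham SFA-EAA, and 389 and 377 in sham SFA. Both sham SFA-EAA libraries lay below all others, though the higher of them, at 286, was close to TAC SFA replicate 2, at 304. Itga3, another laminin-binding chain, ranged from 30.7 to 65.6 in TAC and from 42.4 to 62.5 in sham, so that the sham range lay within that of TAC. Of the collagen receptors, Itga1 ranged from 125 to 169 in TAC and from 122 to 159.9 in sham. Itga1 shares its locus with Pelo on the same strand, which had a mean of 71.1 against 138.7 for Itga1. Itga11, a collagen receptor chain of fibroblasts, ranged from 14.5 to 52.5 in TAC and from 8.11 to 12.9 in sham without passing (log2 fold change 0.89, limma adjusted p = 0.305). Its operations did not overlap, and a single library set the top of the TAC range. Itgav, which pairs with several beta chains, ranged from 86.3 to 169 in TAC and from 86.1 to 143 in sham.

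Several scarce members had their highest value in TAC SFA replicate 2, far above the other TAC SFA library. Itga11 was at 52.5 there and at 14.98 in the other TAC SFA library, the nephronectin receptor chain Itga8 at 67.2 and 16.9, and Itgb4, the partner of Itga6 in hemidesmosomes, at 18.2 and 2.74. For the platelet chain Itga2b the values were 13.2 and 2.77, for Itgb8, a partner of alpha V, 20.4 and 2.70, and for the laminin gamma chain Lamc3 8.98 and 1.83. The next highest library was 16.4 for Itga11 (TAC SFA-EAA replicate 1), 32.1 for Itga8 and 18.1 for Itgb8 (both sham SFA-EAA replicate 1), 13.1 for Itgb4 and 5.19 for Lamc3 (both sham SFA replicate 1) and 3.72 for Itga2b (TAC SFA-EAA replicate 2), so Itgb8 and Itgb4 did not stand clear of the other groups. The same library had the highest sum of 6 epicardial markers, 109 against 34.0 in its replicate, 12.4 and 25.2 in TAC SFA-EAA and 15.4 to 59.1 in sham, and the Myl7 value given above. The part of those cells in these values was not tested. The sum of 6 platelet markers was 46.6 in this library, 30.3 in its replicate, 34.8 and 41.0 in TAC SFA-EAA and 41.4 to 43.3 in sham.

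The laminin chains and linkers had mostly small positive differences that did not pass with the deposited values. Lamc1, the gamma chain of nearly all laminins of the heart, had 711 and 705 in TAC SFA-EAA, 1009 and 1147 in TAC SFA, 513 and 609 in sham SFA-EAA, and 810.5 and 694 in sham SFA. Within each diet both TAC libraries lay above both sham libraries, but across diets sham SFA replicate 1 lay above TAC SFA-EAA. The averaged log2 fold change was 0.43 (SE 0.09) with a limma adjusted p = 0.0581, and 0.38 with an adjusted p = 0.0151 after correction for GC content. Lama2, the alpha chain of muscle laminin, had 506 and 532 in TAC SFA-EAA, 626 and 716 in TAC SFA, 474 and 529 in sham SFA-EAA, and 470.5 and 502 in sham SFA. Only the TAC SFA libraries stood apart (averaged log2 fold change 0.26, adjusted p = 0.188). Lama2 was called higher in TAC under SFA after correction for GC content, as given below. Lama4, a chain of vessel and muscle basement membranes, had 361 and 394 in TAC SFA-EAA, 421 and 387 in TAC SFA, 294 and 326 in sham SFA-EAA, and 428 and 355 in sham SFA. Lama5, the other alpha chain of vessels, had 527 and 240.0 in TAC SFA-EAA, 345 and 451 in TAC SFA, 325 and 448 in sham SFA-EAA, and 370.3 and 478 in sham SFA. The operations overlapped for both chains, and Lama5 had its highest and its lowest value within TAC SFA-EAA.

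With the deposited values the laminin beta chains and the linkers also did not pass between the operations, and several stood lower in the SFA-EAA libraries. Lamb1 had 524 and 511 in TAC SFA-EAA, 691 and 604.5 in TAC SFA, 401.5 and 467 in sham SFA-EAA, and 608 and 594 in sham SFA, so SFA libraries lay above SFA-EAA libraries throughout. Lamb2, the beta chain of mature muscle and vessel laminins, had 1410.0 and 546 in TAC SFA-EAA, 1414 and 1977 in TAC SFA, 742 and 844 in sham SFA-EAA, and 1468 and 1646 in sham SFA. TAC SFA-EAA replicate 2 was its lowest library. Hspg2 had 1753 and 650.3 in TAC SFA-EAA, 2148 and 2628 in TAC SFA, 629 and 968 in sham SFA-EAA, and 1729 and 1896 in sham SFA, with its lowest values in TAC SFA-EAA replicate 2 and the sham SFA-EAA libraries. Nid1, which bridges laminin and type IV collagen, had 524 and 666 in TAC SFA-EAA, 776 and 909 in TAC SFA, 481 and 563 in sham SFA-EAA, and 643 and 519 in sham SFA. Both TAC SFA libraries were above all others. Nid2, its paralogue, had 81.1 and 91.6 in TAC SFA-EAA, 134.8 and 109 in TAC SFA, 48.8 and 61.2 in sham SFA-EAA, and 130.2 and 87.7 in sham SFA, lowest in sham SFA-EAA. Agrn, the proteoglycan agrin that binds laminin and dystroglycan, ranged from 142 to 249 in TAC and from 121 to 174 in sham (log2 fold change 0.44, limma adjusted p = 0.178, and 0.38, adjusted p = 0.0382, after correction for GC content). Nid2 shares its locus with 2700060E02Rik on the other strand, which had a mean of 522, and the use of strand in counting is not given in the sources used here.

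Ratios of chains within a library are free of its scaling, and 5 were tested as a family. Itga5 over Itga7, a fibronectin against a laminin receptor chain, was 0.377 and 0.647 in TAC SFA-EAA, 0.525 and 0.536 in TAC SFA, 0.351 and 0.287 in sham SFA-EAA, and 0.331 and 0.290 in sham SFA. Every TAC ratio exceeded every sham ratio, TAC SFA-EAA replicate 1 by the least. The mean log2 ratio was 0.71 higher in TAC, with p = 0.0286 in a two-sided exact permutation test (70 permutations), the smallest that 4 against 4 libraries can give, and 0.143 after Benjamini-Hochberg adjustment over the 5 ratios. A single ratio alone at that smallest p-value could not pass after the adjustment. Itga7 had an averaged log2 fold change of 0.00, so this ratio restates the difference of Itga5 and is not separate support for it. Lama5 over Lama2 was 0.35 lower on the log2 scale (-0.35, exact p = 0.257, adjusted 0.643), and the other 3 ratios, Lama4 over Lama2, Lamb1 over Lamb2 and Nid1 over Nid2, differed by -0.09, 0.05 and -0.05 (adjusted exact p = 0.971 for each). Nid1 over Nid2 had opposite directions in the diets, -0.46 under SFA-EAA and 0.36 under SFA, as had Lama4 over Lama2, 0.23 under SFA-EAA and -0.41 under SFA. These differences between diets were given no test of their own.

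Taken by diet, the same 2 receptor chains led. Under SFA-EAA none of the 38 members passed limma's threshold (9 did at an unadjusted p under 0.05, against 8.57% of all genes), where 0.0122% of all genes did. With TAC SFA-EAA replicate 2 left out 1 member passed, Hspg2, with 1.67% of all genes. The smallest p-values were those of Itga5 (log2 fold change 0.63, SE 0.13, adjusted p = 0.299), Itga9 (0.84, SE 0.18, 0.304), Itgb2 (1.36, SE 0.35, 0.368) and Itga6 (0.50, SE 0.14, 0.408). Under SFA, Itga9 rose 2.28-fold (log2 fold change 1.19, SE 0.18, limma adjusted p = 0.0209) and Itga5 1.72-fold (0.78, SE 0.13, adjusted p = 0.0304), 2 of 38 members, where 0.834% of all genes were called higher, 0.414% lower and 1.25% in either direction. Neither passed with any single TAC SFA or sham SFA library left out, with an adjusted p between 0.0849 and 0.289 for Itga9 and between 0.0682 and 0.349 for Itga5. Itga5 also missed without either sham SFA-EAA library, which share the estimate of spread (adjusted p = 0.0715 and 0.0712). With TAC SFA-EAA replicate 1 left out, 8 members passed, and with TAC SFA-EAA replicate 2 left out, 7, where 5.29% and 5.15% of all genes were called. With no filter on low values the limma adjusted p of Itga9 was 0.0795. The members' median log2 fold change was 0.21 under SFA-EAA and 0.34 under SFA, beside 0.00 and 0.01 over all genes, and the SFA median was 0.53 from TAC SFA replicate 2 alone and 0.23 from TAC SFA replicate 1 alone. A call in 1 diet and none in the other does not show that the diets differ; the interaction tests that.

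**Figure D3:**
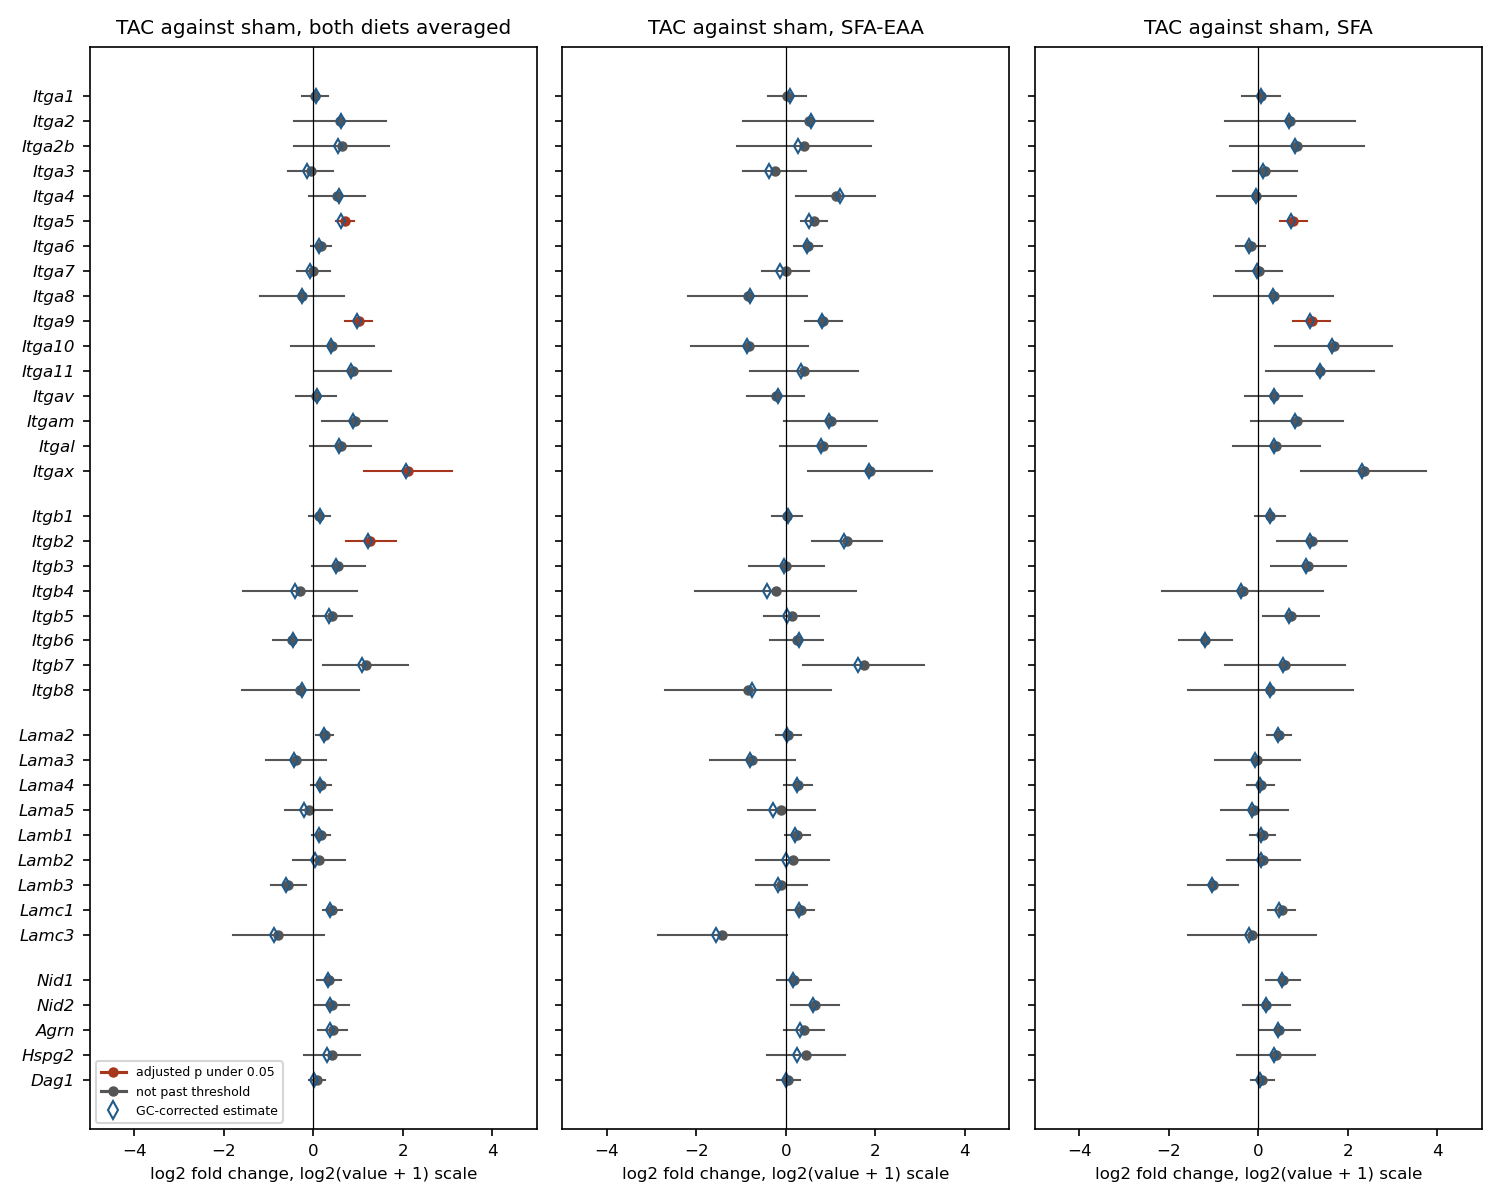
Log2 fold change of TAC over sham on the log2(value + 1) scale (horizontal) for 38 members ordered by role (vertical), averaged over diets and within SFA-EAA and SFA. Points with lines are limma estimates with 95% intervals, red where the adjusted p is under 0.05, and open diamonds are GC-corrected estimates; Itga5 and Itga9 are red in the averaged and the SFA panel, and Itgb6 and Lamb3 lie left of 0 under SFA.

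Itgb6 and Lamb3 went the other way under SFA. Itgb6 (ENSMUSG00000026971, chromosome 2, 60598292 to 60722643) encodes the epithelial beta chain that pairs with alpha V and activates latent TGF-beta. It had 79.05 and 88.9 in TAC SFA-EAA, 68.4 and 38.2 in TAC SFA, 66.5 and 75.1 in sham SFA-EAA, and 124 and 112 in sham SFA. Within SFA both TAC libraries lay below both sham libraries, whereas within SFA-EAA both lay above. The log2 fold change under SFA was -1.19 (SE 0.26, limma adjusted p = 0.0743), and -1.20 with an adjusted p = 0.0128 after correction for GC content. Lamb3 (ENSMUSG00000026639, chromosome 1, 193207699 to 193343878), the beta chain of the laminin of epithelia, had 77.9 and 57.6 in TAC SFA-EAA, 43.7 and 34.25 in TAC SFA, 62.85 and 81.7 in sham SFA-EAA, and 88.0 and 71.45 in sham SFA. The TAC SFA libraries were the lowest of the 8. The log2 fold change under SFA was -1.02 (SE 0.25, adjusted p = 0.101), and -1.03 with an adjusted p = 0.0185 after correction. Its partner Lama3 ranged from 8.26 to 16.6 in TAC and from 11.03 to 23.7 in sham.

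Lamb3 shares its locus with 3 other genes in the deposited coordinates, G0s2 and Hsd11b1 on the other strand and Gm37691 on the same one. Their log2 fold changes under SFA were -1.28, -0.80 and -0.80 (limma adjusted p = 0.184, 0.187 and 0.317), and their means over the libraries 144, 71.2 and 29.8, against 64.7 for Lamb3. Reads shared with G0s2 and Hsd11b1 cannot be told apart from those of Lamb3 where the counting may not have used strand. Reads shared with Gm37691 cannot be told apart by strand in either case.

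With GC-corrected values 5 members were higher and 2 lower in TAC under SFA, where 2.38% of all genes were called higher and 2.69% lower. These were Itga5, Itga9, Itgb5, Lama2 and Lamc1 above (limma adjusted p = 0.0250, 0.00351, 0.0191, 0.0376 and 0.0342), and Itgb6 and Lamb3 below. Averaged over the diets, 6 were higher and 1 was lower (background 3% and 3.27%): the 4 named first with Agrn and Lamc1, and Lamb3, whose log2 fold change was -0.60 (adjusted p = 0.0401). The 6 include Itgax, which passed the filter on low values through the TAC libraries, so its call adds no support to that count. Under SFA-EAA no member passed with corrected values, against 0.213% of all genes. The share of all genes called with single libraries left out is not given here. The counts that follow therefore show only how stable the calls were. The corrected count under SFA was 0 with either second replicate of that diet left out, 1 with sham SFA replicate 1 left out, and 2 under SFA-EAA with TAC SFA-EAA replicate 1 left out. The averaged one was 1 with sham SFA replicate 2 left out, and 3 and 4 with sham SFA-EAA replicate 1 or 2 left out.

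The second question of the design was whether the amino acid diet changed these genes. No atrial marker tested had a positive log2 fold change between the diets with deposited values, as given above. In TAC hearts none of the 38 members passed between SFA-EAA and SFA (13 did at an unadjusted p under 0.05, against 15.1% of all genes), where 0.0487% of all genes did. The members' median log2 fold change was -0.40, beside -0.03 over all genes, and 31 of 38 were negative. The smallest p-values were those of Itga9 (log2 fold change -0.90, SE 0.18, limma adjusted p = 0.114), Lamc1 (-0.60, SE 0.13, 0.126), Itga5 (-0.58, SE 0.13, 0.127) and Itga10 (-2.44, SE 0.58, 0.131). Itga10, a collagen receptor chain of cartilage, had 2.06 and 1.30 in TAC SFA-EAA, 10.4 and 17.1 in TAC SFA, 2.72 and 4.86 in sham SFA-EAA, and 6.22 and 1.77 in sham SFA. Its TAC SFA libraries were the 2 highest of the 8 and its TAC SFA-EAA libraries lay at the low end. With TAC SFA-EAA replicate 1 left out, 9 members passed, all of them lower in SFA-EAA, but 13.3% of all genes were then called.

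After correction for GC content, 2 members differed between the diets in TAC hearts, where 1.18% of all genes were higher and 0.755% lower. Itga9 was lower in SFA-EAA (log2 fold change -0.79, limma adjusted p = 0.0457) and Lamb3 higher (1.05, adjusted p = 0.0333). The limit of the shared locus of Lamb3 given above holds here too. The difference of Itga5 shrank to -0.19 (adjusted p = 0.665), and the members' median to -0.18. As the GC trend largely went with the diet, which set of values lies nearer to a diet effect cannot be told. Shares of all genes called with single libraries left out are not given here, so the counts below show only how stable the calls were. This corrected count was 0 with TAC SFA replicate 2 or either sham SFA library left out, 1 with TAC SFA-EAA replicate 2 or either sham SFA-EAA library left out, and 4 with TAC SFA replicate 1 left out.

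In sham hearts limma called none of the members between SFA-EAA and SFA (10 at an unadjusted p under 0.05), and 0% of all genes (14.8% at an unadjusted p under 0.05). The median log2 fold change of the members was -0.27, beside -0.01 over all genes, and -0.07 after correction for GC content, when again no member passed (0.0304% of all genes did). Nid2, Lamb1, Itga6 and Itga5 had the smallest p-values, with log2 fold changes of -0.95, -0.47, -0.48 and -0.43 and an adjusted p = 0.267 for each. After correction these were -0.71, -0.33, -0.49 and 0.03, so the difference of Itga5 turned its sign while that of Itga6, a gene of 48.9% GC, kept its size. The uncorrected count was 6 members with TAC SFA-EAA replicate 1 left out and 5 with its replicate 2 left out, where 7.3% and 7.24% of all genes were called, and the corrected one 0 in both cases.

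Whether the TAC effect differed with the diet was tested as an interaction. Limma called none of the members and 0% of all genes (5 members and 5.49% of genes at an unadjusted p under 0.05), and none of either with GC-corrected values. The smallest p-values were those of Itgb6 (TAC effect 1.43 higher under SFA-EAA than under SFA on the log2 scale, SE 0.37, limma adjusted p = 0.785), Itga6 (0.66, SE 0.20, 0.850), Itga10 (-2.50, SE 0.82, 0.862) and Lamb3 (0.92, SE 0.35, 0.878). For Itga5 and Itga9, the chains called under SFA, the interaction was -0.15 (95% interval -0.57 to 0.27) and -0.35 (-0.93 to 0.24).

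The members are GC-rich and long compared with the genes tested. Their GC content ranged from 40.4% in Itgb8 to 60.9% in Hspg2, with a median of 52.9% against 49.6% over the genes tested, and their median length was 6224 bases against 3734. In TAC SFA-EAA replicate 2 the members' deviation from their means fell with GC content (Spearman rho -0.71 over 38 members, which share that library), and in its own replicate it rose (0.31). Of the 11 members at or above the GC content of Itgb5 (57.0%), 8 had their lowest or second lowest value of the 8 libraries there, Hspg2, Lama5, Lamb2, Itga7 and Itgb5 among them, and 3 (Itga5, Itgb7 and Itga2b) did not. In the sham SFA-EAA libraries rho was -0.38 and -0.25, in TAC SFA 0.09 and 0.42, and in sham SFA 0.33 and 0.31. After correction it lay between -0.25, in TAC SFA-EAA replicate 2, and 0.13.

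**Figure D4:**
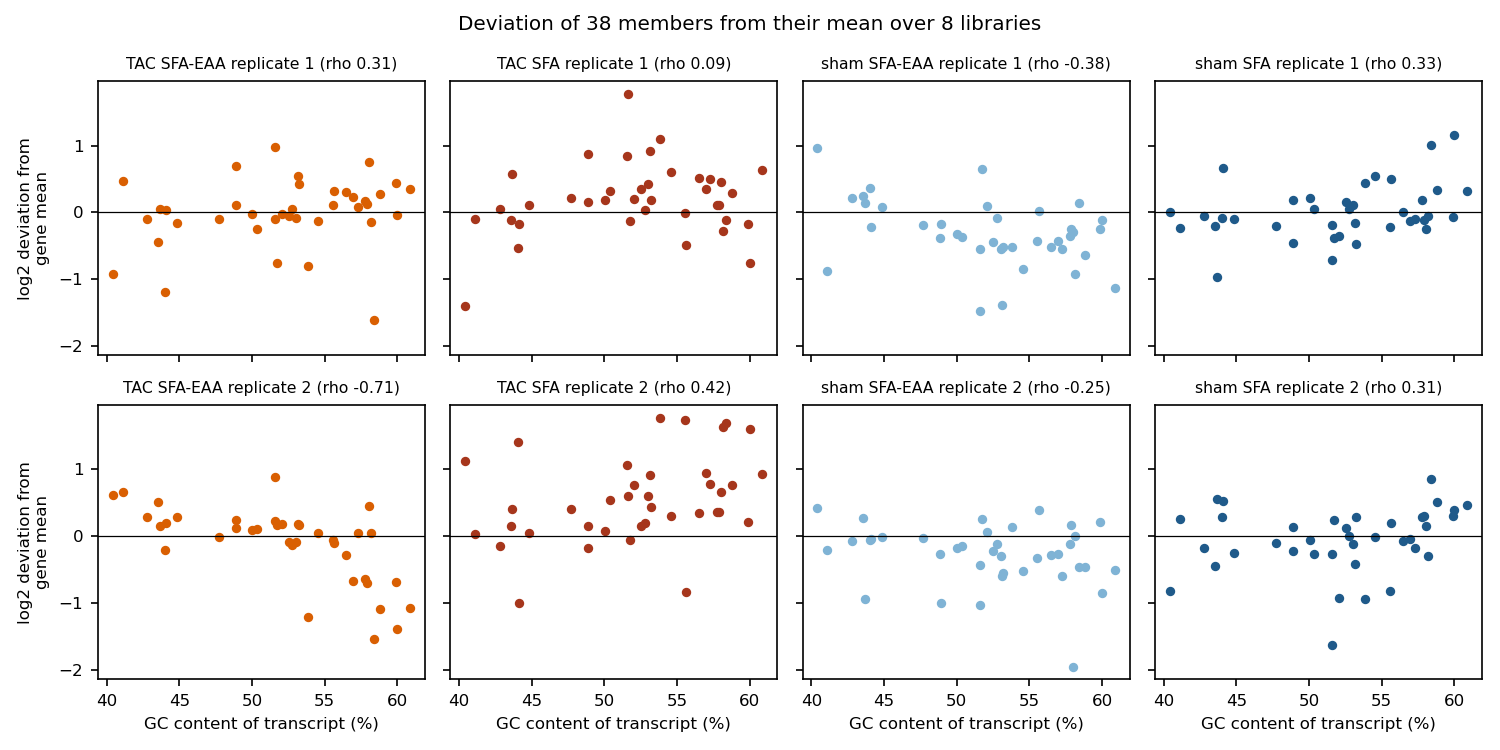
Log2 deviation of each of 38 members from its mean over 8 libraries (vertical) against the GC content of its reference transcript in percent (horizontal), with 1 panel per library and its Spearman rho. The points fall with GC content in TAC SFA-EAA replicate 2 (-0.71) and in both sham SFA-EAA libraries (-0.38 and -0.25), and rho is positive in the other 5, between 0.09 and 0.42.

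Of the gene lists around the receptors, the ligands held the most calls. Of 21 integrin ligands, 20 were tested, and 7 were higher in TAC averaged over the diets and none lower (limma adjusted p under 0.05, background 2.11%): Ctgf, Cyr61, Col3a1, Fn1, Fbn1, Postn and Tnc, with a list median log2 fold change of 0.95. Fn1 and Tnc, ligands of the called chains Itga5 and Itga9, were among them. Of the other Itga9 ligands in the list, Spp1 (osteopontin) and Vcam1 were not called averaged with either set of values. Spp1 was called higher under SFA only with GC-corrected values. Icam1, a ligand of the Itgb2 family, passed only with GC-corrected values. Fn1, the fibronectin bound by Itga5 with Itgb1, had 207 and 266 in TAC SFA-EAA, 429.7 and 762 in TAC SFA, 154 and 170.1 in sham SFA-EAA, and 278 and 188 in sham SFA (0.93, SE 0.20, adjusted p = 0.0497). Tnc, the tenascin C bound by Itga9 with Itgb1, had 14.4 and 14.6 in TAC SFA-EAA, 22.7 and 44.3 in TAC SFA, 2.59 and 5.80 in sham SFA-EAA, and 6.92 and 2.64 in sham SFA (2.13, SE 0.38, adjusted p = 0.0291). TAC and sham did not overlap for Tnc, while for Fn1 sham SFA replicate 1 lay above both TAC SFA-EAA libraries. Under SFA 5 of the 20 were higher (Ctgf, Cyr61, Col3a1, Fbn1 and Postn), where 0.834% of all genes were. None passed under SFA-EAA, in the diet comparisons or in the interaction. With GC-corrected values 12 were higher averaged (background 3%), 12 under SFA (2.38%) and 4 under SFA-EAA (Ctgf, Cyr61, Fbn1 and Postn, with 0.213% of all genes called in either direction). In TAC hearts 9 were lower in SFA-EAA than in SFA, Fn1 among them (background 0.755%).

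Of 21 other basement membrane genes, 5 were higher in TAC averaged over the diets and 1 lower, where 1.38% of all genes were called higher and 0.73% lower. Sparc, a collagen-binding matricellular protein (log2 fold change 1.02, limma adjusted p = 0.00631), and Col15a1, a collagen that ties basement membrane to the matrix beneath (1.03, adjusted p = 0.00895), led, with the type IV collagen chains Col4a1 and Col4a2 (0.80 and 0.84) and the laminin- and nidogen-binding Fbln2 (0.80). Egflam, which encodes the dystroglycan ligand pikachurin, was lower (-0.70, adjusted p = 0.0413). Type IV collagen builds the other sheet of the basement membrane, and the remaining 4 chains of it in the list were not called (Col4a3 was with GC-corrected values). Under SFA 4 were higher (Sparc, Col15a1, Col4a1 and Fbln2), where 0.834% of all genes were. With GC-corrected values Col4a2 was also higher there and Egflam lower (limma adjusted p = 0.00305 and 0.0109, background 2.38% higher and 2.69% lower). Col15a1 was the 1 gene of the list called between the diets, lower in TAC SFA-EAA than in TAC SFA (-1.60, limma adjusted p = 0.0408), where 0.0487% of all genes were called. Sparc and Col4a1 joined it with GC-corrected values (background 0.755% lower).

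On the inner side of the membrane little passed. Of 30 adhesion adaptors, 29 were tested and Fermt1 was at 0 in all libraries. Nrap, which anchors actin at the ends of heart muscle cells, was the only one called, higher in TAC averaged over the diets (0.84, SE 0.10, limma adjusted p = 0.00615) and under SFA (0.92, SE 0.15, adjusted p = 0.0222). The background was 1.38% of all genes called higher averaged and 0.834% under SFA. With GC-corrected values 4 adaptors were higher in TAC averaged (Actn2, Tln1, Zyx and Nrap, background 3%) and 4 under SFA (Actn1, Tln1, Zyx and Nrap, background 2.38%). Nrap was then also higher under SFA-EAA (0.213% of all genes called), and Tln1 and Zyx were lower in SFA-EAA than in SFA among TAC hearts (background 0.755%). None of the 13 genes of the dystrophin complex, which holds dystroglycan in muscle cells, passed in any comparison, and their averaged median was 0.09. With GC-corrected values Dmd was called higher in TAC, averaged and under SFA (background 3% and 2.38%). None of the 14 genes that add the laminin-binding sugars to dystroglycan passed with either set of values, with a median of -0.04.

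Fibroblast markers, of cells that make much of the matrix, were highest in TAC SFA. Their sum over 8 genes was 5012 and 5935 in TAC SFA-EAA, 9014 and 13820 in TAC SFA, 5257 and 4572 in sham SFA-EAA, and 5978 and 5144 in sham SFA. Of these Col3a1 and Col1a2 passed, averaged and under SFA (background 1.38% and 0.834% higher), and Col1a2 was lower in TAC SFA-EAA than in TAC SFA (0.0487% of all genes called). With GC-corrected values Col1a1 and Lum joined them averaged (background 3%), and Col1a1, Lum and Pdgfra under SFA (2.38%). Col1a1, Col3a1 and Pdgfra were then also lower in TAC SFA-EAA than in TAC SFA (background 0.755%). Endothelial markers, of the cells that make Lama4 and Lama5 in vessels, summed to between 3933 and 4526 in TAC and 3898 and 4576 in sham, and 0 of 8 passed in any comparison. None of the markers of either list was at 0 in all libraries. Their part in the members' values was not tested.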

How the data were processed

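Left ventricular polyadenylated RNA was made into TruSeq stranded libraries and run on a NextSeq 500, per the labels' protocols. STAR 2.5 with GRCm38 and edgeR are named for alignment and normalization, per the submitters' processing notes. Counter, annotation, strand use and filters are not stated there. The deposited table holds a normalized signal per gene and library that is neither whole counts nor scaled to a fixed sum, so the number of reads behind a value is unknown and no test for counts was run. It lists 49671 genes, 29103 of them at 0 in all libraries. Of those with a reference gene model (49412), 91.4% had identical coordinates, as had 31 of the 39 members. A second row with the symbol of Itgam, at 0 throughout, was left out.

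Log2(value + 1) was fitted with limma-trend (limma 3.58.1, R 4.3.3) for the 16432 genes that reached 1 in at least 2 libraries. The 4 groups each had a mean and shared a spread. Fold changes are on that scale and so understate the change of low genes. The Benjamini-Hochberg adjustment ran over all genes in each of 6 two-sided comparisons, with a call at 0.05, and comparisons that share libraries are not independent. GC correction subtracted from each library a loess curve (span 0.3, fitted on genes with a mean of at least 10) of its deviations on the GC content of reference transcripts, known for 99.8% of the genes tested. Chain ratios were tested by exact permutation over libraries (scipy 1.17.1). The scripts were tested on simulated data. Alternatives were a pseudocount of 0.25, other filters, quantile and median-of-ratios scaling, a replicate block, the 4 libraries compared alone, GC correction, and leaving out each library. Added after seeing the data were GC correction with each library left out, and a replicate block with crossed numbers.

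The members, pathway lists, marker lists and tests were chosen with earlier results of these data known. Values per library are given for members called in a comparison, the 4 with the smallest p in each, the 6 with the highest level per kilobase and those of the ratios. Of the pathway lists, genes called were named, with Nppb as a check of the TAC labels. The values of Fn1 and Tnc, and the scarce members that were high in a single library, were singled out after their values were seen.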

Additional observations from a re-analysis of the deposited data

Results flagged for a closer look

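The direction of a difference was opposed between groups for 3 members, every library of one group lying on the other side of its controls from those of the other group. Itgb6 was lower in TAC than in sham under SFA and higher under SFA-EAA, and likewise lower in SFA-EAA than in SFA in sham hearts and higher in TAC hearts. Both are the same interaction of 1.43 on the log2 scale (SE 0.37, limma adjusted p = 0.785). Itga10 was lower in TAC under SFA-EAA and higher under SFA, by an interaction of -2.50 (SE 0.82, limma adjusted p = 0.862), and Itgb3, the beta chain of platelets and of the vitronectin receptor, was lower in SFA-EAA than in SFA in TAC hearts and higher in sham hearts, by an interaction of -1.11 (SE 0.53, limma adjusted p = 0.878). Itgb3 had 14.4 and 16.8 in TAC SFA-EAA, 17.0 and 25.4 in TAC SFA, 15.6 and 15.3 in sham SFA-EAA, and 11.2 and 7.24 in sham SFA. None of these interactions passed the threshold, where 0% of all genes did. The share of all genes with directions opposed in this way is not given here, so these 3 members are not shown to be unusual.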

How the results depend on the processing

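Calls depended on single libraries and on GC correction, while the directions of the named members mostly did not. Those members were named for a call or a small p-value in the same comparison, which made reversals unlikely beforehand. Of the chain ratios under the alternatives, 43 kept their direction and 7 reversed. Of the log2 fold changes of named members under the alternatives, 336 kept direction and side of the threshold, 23 came to pass, 39 no longer passed and 2 reversed, both for Itga5 between diets in sham hearts (0.03 with GC correction, with and without the replicate block). Members called for TAC averaged over diets (4 as reported) numbered 1 with no filter, 2 with a replicate block, 7 with GC correction, 0 to 8 with a library left out, and 1 to 8 with both GC correction and a library left out. Under SFA (2 as reported) they numbered 1 with no filter, 0 with a replicate block, 7 with GC correction, 6 with GC correction and the block, 9 in the 4 libraries alone, 0 to 8 with a library left out and 0 to 8 with GC correction besides (5 with either sham SFA-EAA library left out). Under SFA-EAA (0 as reported) the counts were 0 to 1 with a library left out, and 0 to 2 with GC correction besides. Between diets in TAC hearts (0 as reported) they were 2 with GC correction (Itga9 and Lamb3), 0 when the replicate block was added to that, 0 to 9 with a library left out and 0 to 4 with GC correction besides. Between diets in sham hearts (0 as reported) they were 6 in the 4 libraries alone and 0 to 6 with a library left out, and for the interaction (0 as reported) 0 to 0 and, with GC correction, 0 to 1. A library left alone in its group was assumed to vary like the other groups. The share of all genes called changed between settings too. For TAC averaged over diets, 1.38% of all genes were called higher as reported and 3% with GC correction. A larger count of members is therefore not in itself a result about the members. The averaged counts as reported and with GC correction also include Itgax, which passed the filter through TAC. The cause of this dependence was not tested.

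With a library left out, the members' median log2 fold change lay between 0.22 and 0.34 (TAC averaged), 0.23 and 0.53 (SFA), 0.14 and 0.38 (SFA-EAA), -0.40 and -0.22 (diets in TAC), -0.34 and -0.23 (diets in sham) and -0.20 and -0.05 (interaction). GC correction, with or without the replicate block, gave -0.18 for the diets in TAC and -0.07 in sham. Chain ratios with a library left out ranged from 0.59 to 0.85 for Itga5 over Itga7, -0.59 to -0.19 for Lama5 over Lama2, -0.15 to 0.03 for Lama4 over Lama2, -0.27 to 0.27 for Lamb1 over Lamb2 and -0.23 to 0.10 for Nid1 over Nid2, so the last 3 had no settled direction.

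By the correlation of deviations the replicate numbers were not taken to pair the libraries: those of same-numbered libraries correlated between -0.10 and 0.01, and between diets in TAC hearts 0 members were called with the block and 0 with the numbers of TAC SFA crossed (0 and 31 of all genes). With 2 libraries a group and no read numbers, differences of scarce members such as Itga2, Itgax and Lamc3 were not measurable with precision.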
